A study of Mus musculus with 6 samples.

Results

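Glycosyltransferases and glycan-modifying enzymes build, trim and sulfate the sugar chains of glycoproteins, glycolipids and proteoglycans. The genes described here are those whose mouse symbol begins with Alg, Dpm, Mgat, Man1 or Man2, B3gal, B3gnt, B3gat, B4gal, St3gal, St6gal, St8sia, Galnt, Gcnt, Fut, Chst, Hs2st, Hs3st or Hs6st, Ndst, Pomt, Pomgnt, Xylt or Ext, or is Pig followed by 1 letter. Of 177 protein-coding genes of the GENCODE M21 annotation (build GRCm38) that match, 58 had a row in the deposited table, out of 13685 rows in all. The other matching genes were not analysed here, including all 9 mannosidases and 8 of 10 N-glycan branching enzymes (Mgat). A row was present for 26 of 29 matching genes with 1 annotated transcript and for 32 of 148 with more than 1, so genes with 1 transcript make up a larger share of the 58 than of all matching genes.

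N-linked glycans are assembled on the lipid dolichol by the Alg enzymes, moved to nascent proteins in the endoplasmic reticulum, then trimmed and extended in the Golgi. Tunicamycin blocks the first step, catalysed by the product of Dpagt1, and the resulting misfolded proteins can activate the unfolded protein response. Golgi enzymes then add branches, galactose, fucose and sialic acid, and on T cells these ends take part in selectin binding, receptor clustering and recognition by lectins. Other members start O-linked chains, make the glycosylphosphatidylinositol (GPI) anchors that hold some surface proteins, build gangliosides, or polymerise and sulfate the chains of proteoglycans.

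RNA was sequenced from CD4+ T cells of C57BL/6 mice, taken from spleen and mesenteric lymph node, in 6 libraries. All cells were of the WT genotype, were the non-Treg (CD25-) fraction, and were cultured for 4 h. The 3 vehicle libraries came from cells titled as having no treatment, which per the labels' protocols received vehicle, and the 3 tunicamycin libraries from cells given 0.15 µg/mL. Neither the age nor the number of mice is in the labels, which name the libraries within each group as technical replicates. The p-values below therefore measure only the spread between libraries, which may be technical. Summed estimated counts over the rows ran from 7412151 to 9495725 in vehicle and from 10584276 to 11211270 in tunicamycin, so depth was higher in every tunicamycin library. Of 10 listed CD4 T cell markers, 6 had a row, with summed levels of 1611 to 1747.5 TPM (transcripts scaled to length and library total) in vehicle and 1653.5 to 1725 TPM in tunicamycin. Cd4 itself was not analysed here. Summed natural killer cell markers (5 of 9 with a row) ran from 9.03 to 11.3 TPM in vehicle and from 11.8 to 16.6 TPM in tunicamycin. Summed plasma cell markers (3 of 6 with a row) ran from 21.4 to 183.4 TPM in vehicle and from 26.1 to 190.9 TPM in tunicamycin. In bulk RNA, fewer cells of a type and less RNA per cell cannot be told apart.

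Among the 58 genes, 22 had a mean of at least 1 TPM in the vehicle libraries, a share of 37.9% against 20.6% of all rows. The sets are unlike, since the 58 are all protein-coding while the rows also include other gene types such as pseudogenes. TPM is a level per transcript length, so it allows genes to be compared. The filter on low counts left 27 members for testing. Of the other 31, 11 had 0 counts in all 6 libraries and 20 had some, with at most 10 counts in any library and a mean of at most 0.0953 TPM. The summed level of all 58 was 307.7 ± 17.2 TPM in vehicle and 325.7 ± 7.5 TPM in tunicamycin (SD, n = 3 in both). The plot of levels by role shows all tested members in every library.

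**Figure D1:**
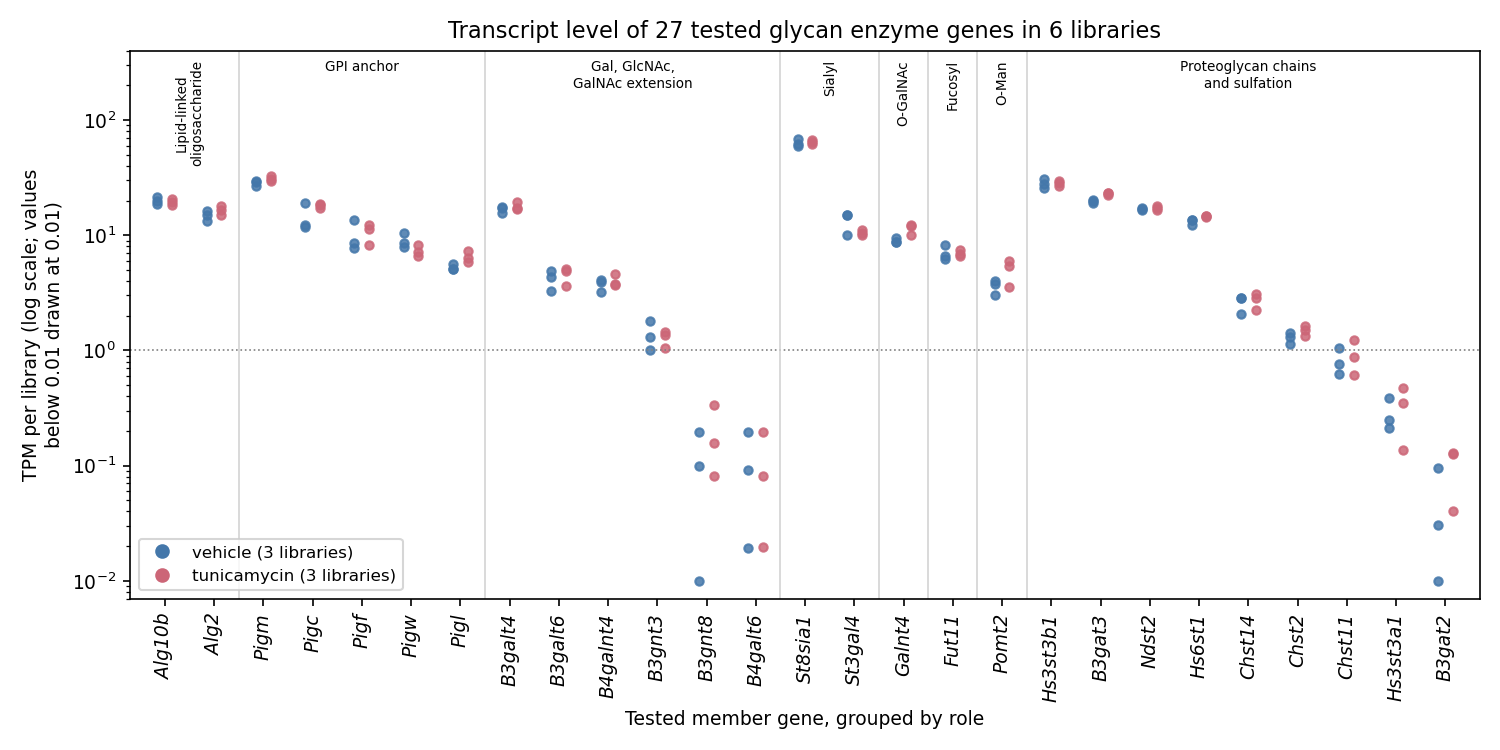
Level of each of the 27 tested members in TPM on a log axis, with 1 point per library, grouped by role. Blue points are the 3 vehicle libraries and red points the 3 tunicamycin libraries. The dotted line marks 1 TPM, and values below 0.01 TPM are drawn at 0.01. St8sia1 stands highest, at 63.3 TPM in vehicle and 65.0 TPM in tunicamycin, and 5 members lie under 1 TPM.

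St8sia1 (ENSMUSG00000030283, chromosome 6 from 142821545 to 142964452), the sialyltransferase that makes the ganglioside GD3 from GM3, was the most abundant member. Its level was 63.3 ± 4.84 TPM in vehicle against 65.0 ± 2.67 TPM in tunicamycin (SD, n = 3 each). It supplied 20.5% ± 0.587 of the summed TPM of the 58 genes in vehicle against 19.9% ± 0.372 in tunicamycin (SD, n = 3 each). St3gal4, which caps galactose with sialic acid and contributes to selectin ligands, was at 13.3 ± 2.83 TPM in vehicle (SD, n = 3). The related St6galnac2 had at most 9 counts in a library, and St6galnac5 had 0 counts in all 6.

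In the assembly of the lipid-linked oligosaccharide, Alg10b, which adds the last glucose, was at 20.1 ± 1.41 TPM in vehicle, and Alg2, which adds early mannoses, at 14.8 ± 1.47 TPM (SD, n = 3 each). Among GPI anchor genes, Pigm, the transferase of the first mannose, was highest at 28.5 ± 1.34 TPM in vehicle (SD, n = 3). Pigc, a subunit of the enzyme that starts the anchor, was at 14.5 ± 4.08 TPM and Pigf, a partner in adding ethanolamine phosphate, at 9.97 ± 3.27 TPM (SD, n = 3 each). Pigw, which acylates the inositol, was at 8.97 ± 1.31 TPM and Pigl, the deacetylase that acts after the starting enzyme, at 5.27 ± 0.335 TPM (SD, n = 3 each). Pigz, which adds a side mannose, had at most 5 counts in any library.

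Proteoglycan enzymes included several of the more abundant members. Hs3st3b1, a sulfotransferase of heparan sulfate, was at 28.1 ± 2.29 TPM in vehicle (SD, n = 3). B3gat3, the glucuronyltransferase that completes the linker between protein and chain, was at 19.6 ± 0.466 TPM (SD, n = 3). Ndst2, which deacetylates and sulfates glucosamine in heparan sulfate, was at 16.9 ± 0.4 TPM, and Hs6st1, another heparan sulfate sulfotransferase, at 13.1 ± 0.799 TPM (SD, n = 3 each). Within the Hs3st family the levels were uneven: Hs3st3a1 was at 0.284 ± 0.0931 TPM in vehicle (SD, n = 3), and Hs3st1, Hs3st2 and Hs3st4 had at most 6, 4 and 2 counts in any library. Hs3st3a1 and Hs3st3b1 share sequence, so the split of reads from the shared stretches is uncertain. Of the 31-base words of Hs3st3b1, 9.81% also occur in transcripts of other genes, with the most matches (counted per transcript) in Hs3st3a1. Of the 31-base words of Hs3st3a1, 44.5% occur in transcripts of other genes. The gene with the most matches is F930015N05Rik, an overlapping protein-coding gene on the opposite strand. Among carbohydrate sulfotransferases of the Chst family, Chst14, Chst2 and Chst11 were at 2.59, 1.29 and 0.812 TPM in vehicle, Chst1 had at most 6 counts in any library, and Chst5, Chst7, Chst8 and Chst13 had 0 counts in every library.

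Other families showed the same pattern of 1 measured member at a clear level beside relatives near 0. Fut11, of the fucosyltransferase family, was at 7.04 ± 1.06 TPM in vehicle (SD, n = 3). Fut1 and Fut9 had 0 counts in all 6 libraries, and Fut2 and Fut4 had at most 1 and 7 counts in any. Galnt4, which attaches the first sugar of mucin-type O-glycans, was at 8.96 ± 0.444 TPM in vehicle (SD, n = 3), while Galnt16 and Galntl6 had at most 8 and 4 counts in any library. The O-glycan branching genes Gcnt3, Gcnt4 and Gcnt7 had at most 7, 6 and 2 counts in any library. Of the O-mannose enzymes, Pomt2, which starts the chain, was at 3.6 ± 0.536 TPM in vehicle (SD, n = 3) and Pomgnt2, which extends it, had at most 7 counts in any library. These statements cover only genes with a row, since other members of each family were not analysed here.

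Among enzymes that extend chains with galactose, GlcNAc or GalNAc, B3galt4, a galactosyltransferase of ganglioside synthesis, was highest at 16.9 ± 1.08 TPM in vehicle (SD, n = 3). B3galt6, which adds a galactose of the proteoglycan linker, was at 4.14 ± 0.827 TPM and B4galnt4, which forms GalNAc-capped ends, at 3.73 ± 0.441 TPM (SD, n = 3 each). B3gnt3, which extends O-glycans with GlcNAc, was at 1.37 ± 0.409 TPM (SD, n = 3). The N-glycan branching genes with a row, Mgat3 and Mgat4d, had at most 2 and 0 counts in any library.

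By mean vehicle level the order began with St8sia1, then Pigm, Hs3st3b1, Alg10b, B3gat3, B3galt4, Ndst2 and Alg2. The vehicle libraries of St8sia1 (59.0 to 68.5 TPM) lay apart from those of Pigm (27 to 29.4 TPM). Pigm and Hs3st3b1 overlapped, as did Alg10b and B3gat3, and B3galt4 and Ndst2. From Alg2 through Pigc, St3gal4, Hs6st1, Pigf and Pigw to Galnt4, every neighbouring pair overlapped, so their order is not fixed by these libraries.

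Setting tunicamycin against vehicle asks whether enzymes of glycan synthesis change in transcript level when the drug is added. Whether N-glycosylation was blocked in these cells was not tested. Of 27 tested members, 0 passed an adjusted p of 0.05 in edgeR's quasi-likelihood test with Benjamini-Hochberg adjustment, where 0.0830% of all 3613 genes tested did (0.0554% higher and 0.0277% lower). At an unadjusted p under 0.05 there was 1 member, Galnt4, a share of 3.7% against 6.42% of all genes tested. DESeq2 and limma on log2(TPM + 1) also called 0 members. The median log2 fold change of the tested members was 0.04, against 0.00 over all genes tested. In all, 18 members lay above 0 and 9 below, and over the alternatives listed in the closing section the number above 0 ran from 14 to 21. The share above 0 was 66.7% of members against 50.1% of all genes tested, and under limma on TPM, which gave the 21 members, it was 77.8% against 62.4% (pseudocount 1) and 63.0% (pseudocount 0.1).

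**Figure D2:**
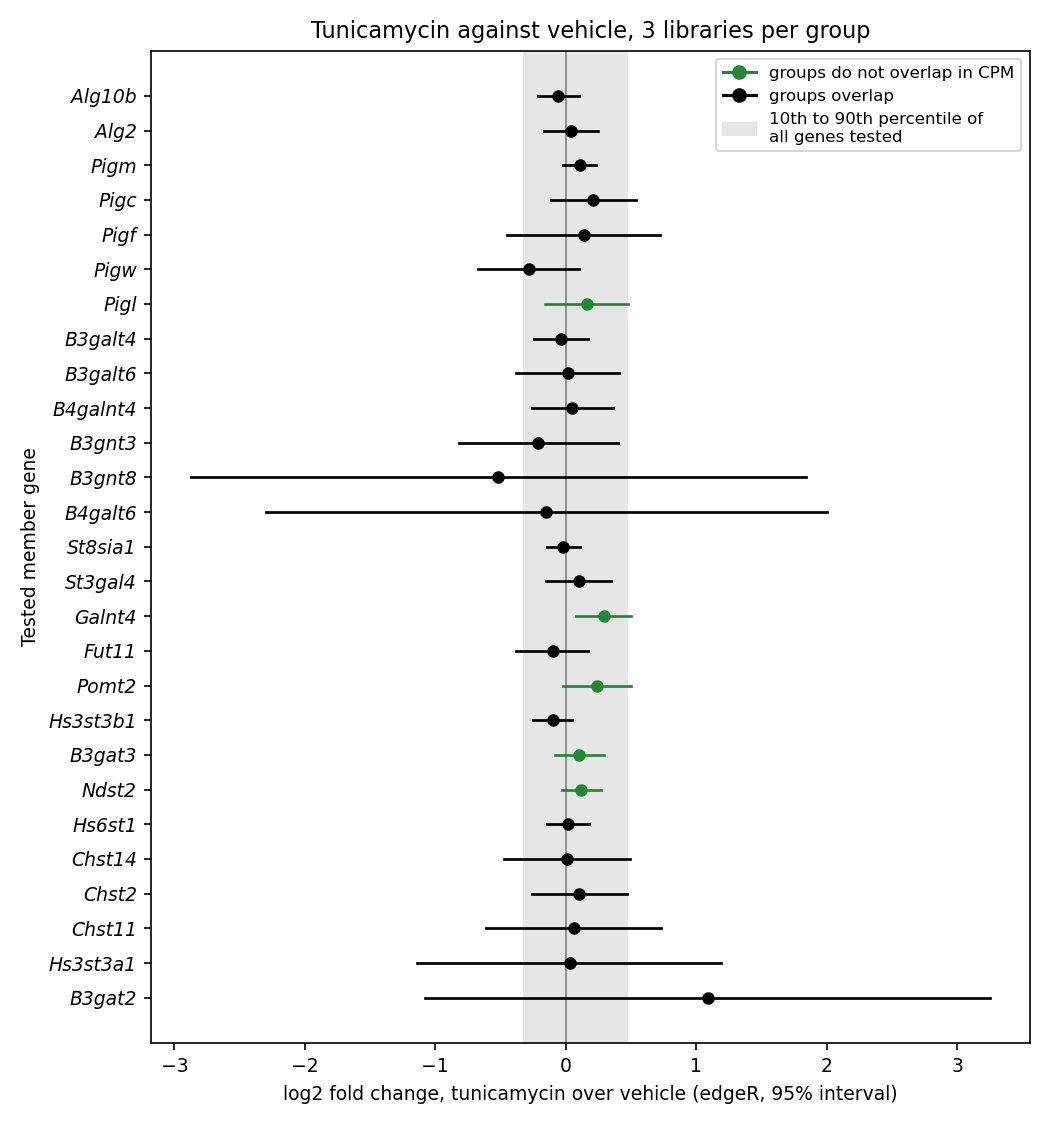
Fitted log2 fold change of tunicamycin over vehicle for the 27 tested members, with a 95% interval computed from edgeR's fit as a line. Green marks the 5 members whose groups of 3 libraries did not overlap, and the grey band runs from the 10th to the 90th percentile of all genes tested (-0.32 to 0.47). Only the interval of Galnt4 (0.08 to 0.50) leaves out 0.

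The precision differed by level. All 18 members with a mean of at least 4 TPM had a 95% interval inside a 2-fold change in either direction, and 16 had it inside a 1.5-fold change. The exceptions to the narrower bound were Pigf, at 0.14 (95% interval -0.45 to 0.72), and Pigw, at -0.28 (95% interval -0.67 to 0.10). The 5 members under 1 TPM had fitted values from -0.52 to 1.09, with intervals that reach past a 1.5-fold change. The plot of members against all genes shows this widening toward low levels.

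**Figure D3:**
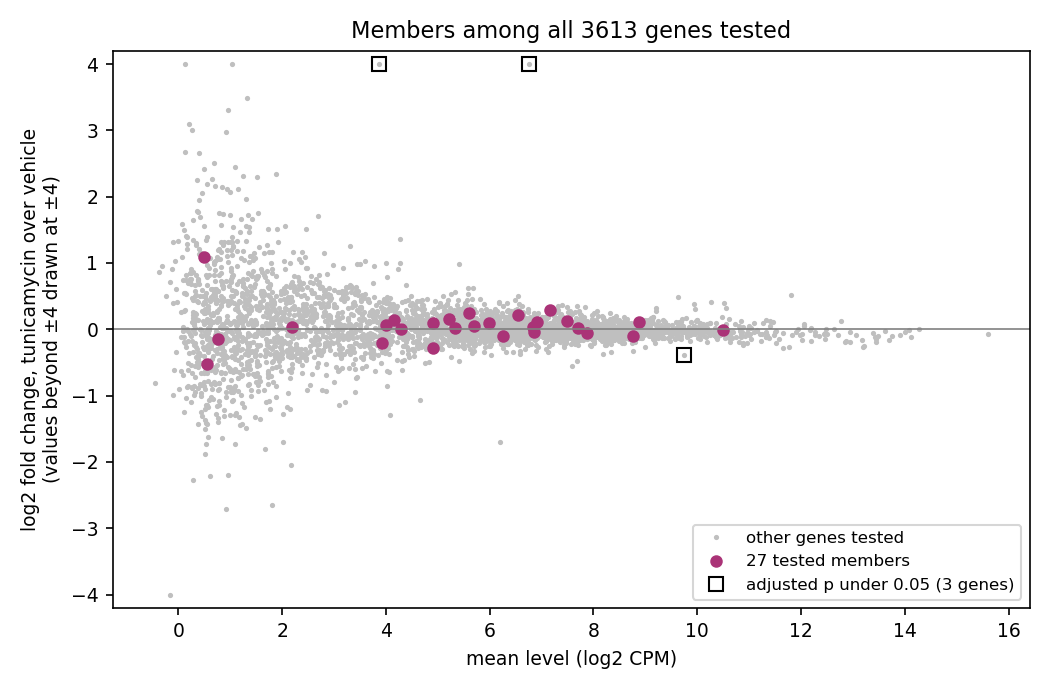
Log2 fold change of tunicamycin over vehicle against mean level in log2 CPM for all 3613 genes tested (grey), the 27 tested members (purple) and the 3 genes past the threshold (open squares). Fold changes beyond 4 in size are drawn at 4. The members lie within the spread of genes of like level, and no square falls on a member.

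The most abundant members had overlapping groups. CPM is used here to compare libraries for the same gene, with values in the order of replicates 1 to 3. It is the count scaled, with TMM factors, to the total over the 3613 genes tested and not to the whole library. Deposited TPM of all rows summed to 319120 to 332870 per library, so the rows hold only part of each library. St8sia1 was at 1550.1, 1443 and 1388 CPM in vehicle against 1476, 1468 and 1388 CPM in tunicamycin. The groups overlapped, and the log2 fold change was -0.02 with an SE of 0.06 (95% interval -0.14 to 0.11). Pigm was at 456, 465 and 435 CPM in vehicle against 486, 508 and 465 CPM in tunicamycin. The second vehicle library lay just above the third tunicamycin library, and the log2 fold change was 0.11 with an SE of 0.06 (edgeR adjusted p = 0.84). Hs3st3b1 was at 475, 416 and 459 CPM in vehicle against 441, 392 and 423 CPM in tunicamycin, so the groups overlapped, with a log2 fold change of -0.10 (95% interval -0.25 to 0.05).

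The enzymes of the lipid-linked oligosaccharide, the pathway that tunicamycin blocks at its start, overlapped as well. Alg10b was at 249, 238 and 227 CPM in vehicle against 218, 226 and 242 CPM in tunicamycin. Alg2 was at 110.2, 120.4 and 104 CPM in vehicle against 113, 125 and 107 CPM in tunicamycin. The log2 fold changes were -0.06 (95% interval -0.21 to 0.10) for Alg10b and 0.04 (95% interval -0.17 to 0.25) for Alg2.

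Of the 5 tested GPI anchor genes, 4 had a fitted value above 0 and 1, Pigw, below, and 0 passed the test. Pigc was at 73.1, 109 and 76.5 CPM in vehicle against 90.2, 100 and 109.5 CPM in tunicamycin. The second vehicle library stood apart from the other vehicle libraries and beside the tunicamycin ones, and the log2 fold change was 0.21 (95% interval -0.11 to 0.54). Pigc overlaps 4930558K02Rik, a protein-coding gene on the opposite strand that also has a row. Whether counting used strand is not stated, but only 1.2% of the 31-base words of Pigc occur in transcripts of any other gene. Pigw was at 33.9, 29.3 and 34.6 CPM in vehicle against 31.9, 24.8 and 23.8 CPM in tunicamycin, with the groups overlapping through 1 library of each. Of the 31-base words of Pigf, 29.7% also occur in transcripts of other genes, with the most matches in its neighbour Rhoq. By this share its reads are the least certain of the 5.

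Among the other enzymes, Fut11 was at -0.10 (95% interval -0.38 to 0.17), with 93.2 CPM in vehicle replicate 2 and 68.0 to 78.6 CPM in the other 5 libraries. The extension enzymes B3galt4, B3galt6, B4galnt4 and B3gnt3 were at -0.04, 0.02, 0.05 and -0.21, all with overlapping groups. Hs6st1 was at 0.02 (95% interval -0.14 to 0.18).

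In 5 tested members every tunicamycin library lay above every vehicle library in CPM, and in 0 tested members every one lay below. These were Galnt4, Pomt2, Pigl, Ndst2 and B3gat3. The 5 make up 18.5% of the tested members, where 6.62% of all genes tested lay higher in this way and 5.95% lower. None passed the test over all genes, and the share was not tested against the background. On deposited TPM 5 members were again higher, but only Galnt4, Pigl and B3gat3 were among both sets, Pigm and Hs6st1 joined, and 10.4% of all genes lay higher and 3.54% lower. Both depth and the summed natural killer cell markers were also higher in every tunicamycin library, and their part in these differences was not tested.

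**Figure D4:**
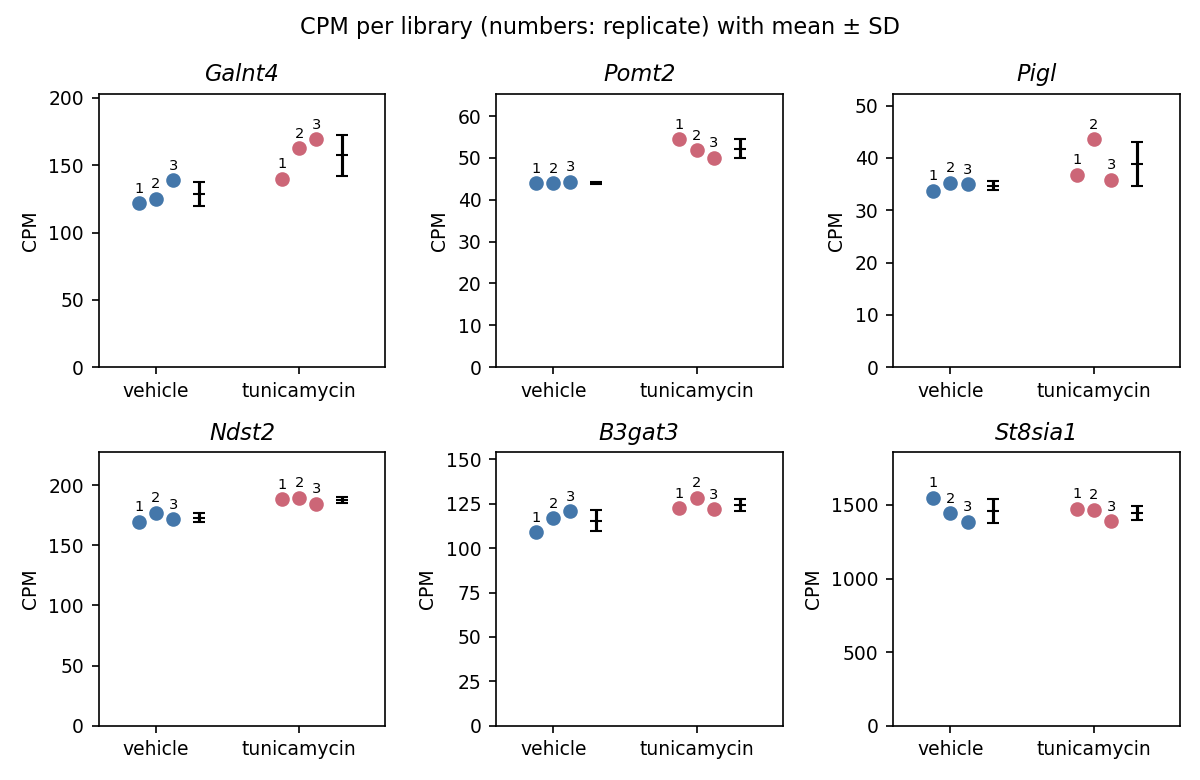
CPM per library of the 5 members whose groups did not overlap, and of St8sia1 for comparison, with replicate numbers beside the points and the mean ± SD in black. Each axis starts at 0. The gap between groups is small beside the level in each of the 5, and St8sia1 overlaps.

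Galnt4 (ENSMUSG00000090035, chromosome 10 from 99108159 to 99113247) had the smallest p of the members. It was at 122, 125 and 139 CPM in vehicle against 140.0, 163 and 169 CPM in tunicamycin. The nearest libraries of the groups, vehicle replicate 3 and tunicamycin replicate 1, were almost equal. The log2 fold change was 0.29 with an SE of 0.09 (unadjusted p = 0.0099, edgeR adjusted p = 0.53). Galnt4 is a single-exon gene that lies within Poc1b on the same strand, so part of its reads may be Poc1b reads. Of its 31-base words, 7.73% also occur in transcripts of other genes, with the most matches in Poc1b.

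Pomt2 (ENSMUSG00000034126, chromosome 12 from 87106861 to 87147968) was at 44.0, 43.9 and 44.3 CPM in vehicle against 54.5, 51.9 and 50.1 CPM in tunicamycin. The vehicle libraries were nearly equal and the tunicamycin libraries all higher, with a log2 fold change of 0.24 and an SE of 0.12 (edgeR adjusted p = 0.80). On TPM its groups overlapped, and the value was 0.41 with effective-length offsets and 0.43 by limma on log2(TPM + 0.1). Ndst2 (ENSMUSG00000039308, chromosome 14 from 20723730 to 20734562) was at 170, 177 and 172 CPM in vehicle against 189, 190 and 185 CPM in tunicamycin. Its log2 fold change was 0.12 with an SE of 0.07 (edgeR adjusted p = 0.84), and it turned to -0.03 with effective-length offsets. Pigl (ENSMUSG00000014245, chromosome 11 from 62458460 to 62514417) was at 33.7, 35.3 and 35.0 CPM in vehicle against 36.8, 43.6 and 35.8 CPM in tunicamycin. The nearest libraries of the groups were almost equal and the second tunicamycin library stood above the rest, and the log2 fold change was 0.16 (95% interval -0.16 to 0.48). Without that library it was 0.07, and by limma on log2(TPM + 0.1) it was 0.30. B3gat3 (ENSMUSG00000071649, chromosome 19 from 8920374 to 8927236) was at 109, 117 and 121 CPM in vehicle against 123, 128.5 and 122 CPM in tunicamycin, with a log2 fold change of 0.10 (95% interval -0.08 to 0.29). It was 0.06 without the first vehicle library and 0.22 by limma on log2(TPM + 0.1).

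Promoters were searched because factors of the unfolded protein response bind known elements near start sites. The window ran from 250 bases before to 50 bases after each RefSeq gene start (GRCm38.p6), both strands were read, and 46 of the 58 genes had a promoter in the table. The full endoplasmic reticulum stress element (ERSE), a CCAAT box and CCACG at a fixed spacing, was found in 0 of the 46, against 0.137% of all 27025 genes with a promoter. The element TGACGTGG was also found in 0 of the 46, against 0.714%. The letters CCACG alone, the end of the full element and so counted in any match of it, were found in 25 of the 46 (54.3%), against 35.5% of all genes. Among tested members they were in 13 of 22 (59.1%), against 44.6% of all tested genes with a promoter. Of these 13, Pigw, B3gnt3, Fut11, Hs3st3b1 and Alg10b had log2 fold changes below 0 (-0.28, -0.21, -0.10, -0.10 and -0.06). Each holds the letters upstream of the start on 1 strand or the other. The rest of the 13 lay above 0. Such short matches are a description of these letters and not of binding.

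Pigl, B3gat3 and Pomt2, of the 5 members with separate groups, hold CCACG upstream of the start, and these stretches are shown with it in capitals. Each reads 5′ to 3′ on the strand of the gene, and positions are from GRCm38.p6. The Pigl stretch is chr11:62458301-62458380 on the plus strand, the B3gat3 stretch chr19:8920273-8920322 on the plus strand, and the Pomt2 stretch chr12:87147913-87147962 on the minus strand.
Pigl: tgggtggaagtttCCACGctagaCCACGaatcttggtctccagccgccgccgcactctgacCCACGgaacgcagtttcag
B3gat3: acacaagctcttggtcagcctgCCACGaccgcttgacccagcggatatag
Pomt2: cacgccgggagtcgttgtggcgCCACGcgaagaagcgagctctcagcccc
Pigl holds CCACG 3 times in 80 bases and the other stretches of 50 bases hold it once each. None of the stretches holds the CCAAT part at the spacing of the full element.

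St3gal4 (ENSMUSG00000032038, chromosome 9 from 35046576 to 35119268) gave opposite directions on the count and TPM scales. Its CPM was 56.2, 60.1 and 67.1 in vehicle against 65.8, 67.7 and 63.4 in tunicamycin, a log2 fold change of 0.10 (95% interval -0.15 to 0.35). Its TPM was 15, 14.9 and 10.1 in vehicle against 10.5, 11.2 and 10.1 in tunicamycin. On TPM, vehicle replicates 1 and 2 stood above the other 4 libraries, and limma on log2(TPM + 1) gave -0.28 (adjusted p = 0.68). The ratio of deposited count to TPM gives, with the median gene of each library set equal, the effective length of the gene relative to its own mean. It was 70.1% and 74.3% in vehicle replicates 1 and 2 and 117.1% to 118.7% in the other 4 libraries. A gene's effective length depends on which of its transcripts the reads were assigned to, and St3gal4 has 9 annotated transcripts. The third vehicle library lay with the tunicamycin libraries on this measure. The edgeR fit with effective-length offsets gave -0.38.

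**Figure D5:**
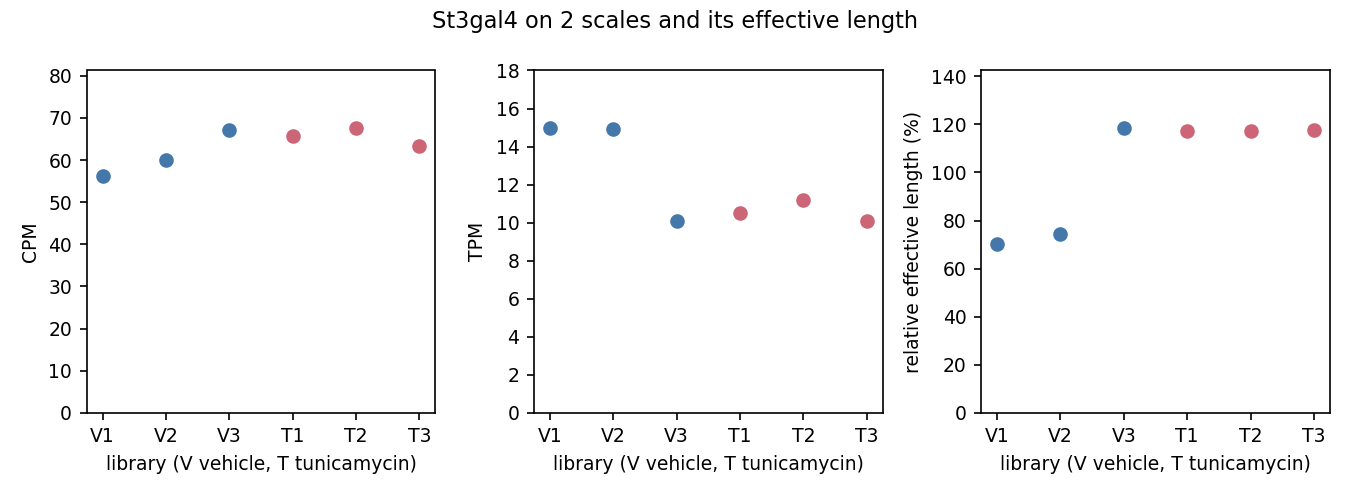
St3gal4 in each library as CPM, as TPM and as effective length in percent of its mean over libraries, with vehicle libraries (V) in blue and tunicamycin libraries (T) in red. Each axis starts at 0. Vehicle replicates 1 and 2 have an effective length of 70.1% and 74.3% and the other 4 libraries of 117.1% to 118.7%.

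Effective length separated the groups in 17 of the 27 tested members (63.0%), longer in vehicle in 14 and in tunicamycin in 3, where it separated them in 46.3% of all genes tested (24.9% and 21.4%). In Hs6st1 it averaged 103.1% in vehicle and 97.0% in tunicamycin, and in Ndst2 it averaged 95.4% and 104.9%. The count and TPM scales thus differ by group for most tested members, and the cause was not tested. Effective length varied more widely in Pomt2, from 78.2% in tunicamycin replicate 2 to 135.4% in tunicamycin replicate 1, with overlapping groups. It varied most in B3gnt8, a member under 1 TPM counted among the 17, from 52.7% in tunicamycin replicate 2 to 286.7% in vehicle replicate 2. B3gnt8 had 0 counts in vehicle replicate 1, so its ratio there was missing and a neutral value was filled in. St8sia1 and Galnt4 varied by 2.63 and 1.73 percentage points over the 6 libraries, so for them the count and TPM scales differ little.

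Other genes of glycan synthesis were read from a list of 132, of which 37 had a row and 35 were tested. Their median log2 fold change was -0.01. None of the 35 passed edgeR's test at an adjusted p of 0.05. At an unadjusted p under 0.05 there were 2, a share of 5.71% against 6.42% of all genes tested. Dpagt1, the gene of the enzyme that tunicamycin blocks, was at 8.44 ± 0.343 TPM in vehicle against 9.05 ± 2.38 TPM in tunicamycin (SD, n = 3 each). These were Ganab, a glucosidase that trims new N-glycans, and Dad1, a subunit of the oligosaccharyltransferase. The log2 fold change of Ganab was 0.14 ± 0.05 (SE, adjusted p = 0.64 in edgeR) and that of Dad1 was -0.17 ± 0.06 (SE, adjusted p = 0.61 in edgeR). Both are described only because the naming rule takes them.

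By level, Ugcg, which makes the glucosylceramide from which gangliosides are built, stood far above every member. It was at 669 ± 34.1 TPM in vehicle against 668.5 ± 23.3 TPM in tunicamycin (SD, n = 3 each). Lfng, which extends the O-fucose of Notch receptors, was at 146.5 ± 4.01 TPM in vehicle against 154 ± 10.1 TPM in tunicamycin (SD, n = 3 each). C1galt1, which makes the core of mucin-type O-glycans after the Galnt enzymes, was at 36.0 ± 2.14 TPM in vehicle against 36.3 ± 0.44 TPM in tunicamycin (SD, n = 3 each). Among lipid-linked and GPI genes, Dolk, the dolichol kinase, was at 5.0 ± 0.531 TPM and Mppe1, which remodels the anchor, at 23.1 ± 0.757 TPM in vehicle (SD, n = 3 each). By role, the fitted log2 fold changes ran from -0.17 to 0.12 in 5 oligosaccharyltransferase genes and from -0.01 to 0.14 in 4 glucosidase and folding-check genes. They ran from -0.11 to 0.17 in 8 lysosomal glycosidase genes. The ranges were widest in other roles, from -0.59 to -0.02 in 4 other proteoglycan and glycolipid genes and from -0.36 to 0.25 in 5 nucleotide sugar genes. The lowest values there were of Papss2 and Gfpt2, at means of 0.202 and 0.149 TPM over all libraries. In each of these roles 0 passed.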

How the data were processed

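The authors deposited estimated counts per gene, partly fractional and not scaled to depth, and TPM for the same rows. Salmon, bcl2fastq, DESeq2 and the build GRCm39 appear in the submitters' processing notes, without a version or role. Which annotation was used, whether strand was, and how transcripts were summed is not stated there. Per the labels' protocols, libraries came from 200 ng of total RNA. Identifiers were given symbols from GENCODE M21 (13627 of 13685), and positions are on GRCm38.

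Rounded counts went into edgeR 4.0.16 (R 4.3.3): filterByExpr (3613 genes left), TMM, robust quasi-likelihood F test, 2-sided, adjusted over all genes, threshold 0.05. Alternatives used DESeq2 1.42.0, limma 3.58.1 with pseudocounts of 1 and 0.1, other scalings and filters, effective-length offsets, a replicate block, and leaving out each library. Members and lists were chosen with earlier results of these data known. Named were members past the threshold, with an unadjusted p under 0.05 or with separate groups, and the 4 highest by TPM per role. Outside the members the rule was an unadjusted p under 0.05 or the 2 highest per role, and Dpagt1 fell under the latter. Counts were simulated for this comparison over 3613 genes, with 50 genes changed at each fold of 1.25, 1.5, 2 and 4. At a mean of at least 32 CPM, the fit called 95.7% of 23 genes with a 2-fold change. It called 74.1% of 27 with a 1.5-fold change but only 9.68% of 31 with a 1.25-fold change. Over all levels it called 58%, 42% and 8% of 50 genes each. Far more genes were changed there than the 3 called in these data, and the adjusted p depends on that number. These rates may therefore be too high for these data. The fitted log2 values of the changed genes lay above the set ones by a mean of 0.052.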

Additional observations from a re-analysis of the deposited data

How the results depend on the processing

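No member was called under any of the 17 alternatives, and over 391 values of 23 genes (20 members, Dpagt1, Ganab and Dad1) the lowest adjusted p was 0.11. Over all genes, 3 were called in the fit reported, 16 without the filter on low counts, 22 by DESeq2, 1 by limma on log2(TPM + 1), and 1 to 5 with 1 library left out (1 without vehicle replicate 2, 5 without vehicle replicate 3). The replicate block gave 36 calls, and adding effective-length offsets to the block gave 6. Libraries of the same number correlated at 0.0371, 0.187 and 0.107 in their deviations from the group means, so not every pair passed 0.1, and the numbers were not taken as pairs. Each correlated best with its own number. Each tunicamycin library carries the name of the vehicle library of its number, with the drug added. Whether libraries of the same number share a source is not stated in the labels. The block changed no call among the members, but with it the edgeR adjusted p of Galnt4 went from 0.53 to 0.11. With the block it also went from 0.64 to 0.12 for Ganab and from 0.61 to 0.16 for Dad1.

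The median of the tested members was 0.12 by limma on log2(TPM + 0.1) and 0.02 to 0.09 with 1 library left out, and their median vehicle level was 8.1 to 9.08 TPM. Signs of uncalled values changed 30 times in 12 members. B3galt4 turned to 0.01 without a composition factor, 0.07 by limma with either pseudocount and 0.02 with effective-length offsets, with or without the replicate block. St8sia1 turned to 0.02 without a composition factor and 0.04 by limma with either pseudocount, where Hs3st3b1 was at 0.01. With effective-length offsets Ndst2 was at -0.03, with or without the block, and St3gal4 at -0.38, or -0.37 with the block. By limma St3gal4 was at -0.28 and -0.30 with pseudocounts of 1 and 0.1. The cause was not tested.

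With 1 library left out, the ranges that crossed 0 were -0.01 to 0.41 for Pigf, -0.20 to 0.03 for Fut11, -0.11 to 0.02 for B3galt4, -0.12 to 0.15 for B3galt6, -0.04 to 0.16 for B4galnt4, -0.39 to 0.04 for B3gnt3, -0.02 to 0.10 for Alg2, -0.02 to 0.07 for Hs6st1 and -0.05 to 0.03 for St8sia1. Levels per effective length were not run, since the ratio of count to TPM gives no absolute length. The TPM scale for separate groups was added after seeing the data, as was CPM without a composition factor, which gave 6 members higher, where 9.49% of all genes tested lay higher and 3.24% lower. Depth limits the lowest members: the intervals of 4 tested members, all under 1 TPM, reach past a 2-fold change.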
